A study of Homo sapiens with 12 samples.

Results

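The genes described here are 35 direct or widely used targets of p53, taken as the rows of the deposited table whose symbol was on a fixed list and whose mean over the 12 libraries was at least 10 normalized counts. All 35 listed genes were found among the 16383 rows of the table and all 35 passed that minimum, as did 11242 rows in all. The lowest was CDIP1, with a mean of 27.2 normalized counts, and the next was FDXR, with 319.8. Libraries were poly(A) RNA from the established cell line IMR90 (wild-type fibroblasts from human lung), in 4 groups of 3. Proliferating cells are labelled as untreated. The other groups had received 20 Gy of ionizing radiation over 10 min and were harvested on day 11 after it. Of these, one group had DMSO, the vehicle, and the others 2 µM palbociclib, which blocks the kinases CDK4 and CDK6, or 2 µM ruxolitinib, which blocks the Janus kinases JAK1 and JAK2, given on days 4, 6, 8 and 10. No DMSO and no harvest time are given for the proliferating cells, so the comparison with them holds irradiation, vehicle and time in culture together. All groups come from 1 cell line, and nothing says whether the replicates were separate cultures, so p-values measure the spread between these libraries, which may be technical.

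The transcription factor p53 is stabilized when DNA is damaged and then switches on a large set of genes. Some of them feed back on p53 itself, others stop the cell cycle, repair DNA, adjust metabolism or promote death and self-digestion of the cell. In irradiated fibroblasts this programme is one of the routes into senescence, a lasting arrest in which the p53 target and CDK inhibitor p21 holds CDK activity down.

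All 10 fibroblast markers examined were above the minimum. Their summed level was 872234 to 907633 normalized counts in proliferating libraries and 437942 to 718402 in irradiated ones. Some markers of other cell types were low and others were not. CDH5 was at 0 to 2.71, PTPRC at 0 to 9.90 and MYH11 at 0 to 2.19 normalized counts. EPCAM was at 9.52 to 35.5, with a mean above the minimum (24.7). The 5 epithelial markers summed to 332 to 444 in proliferating and 560.2 to 1048 in irradiated libraries, mostly KRT8 and KRT19 (233 to 546 and 89.5 to 471), and the 5 endothelial markers to 1681 to 1949 and 2247 to 4380.1, nearly all of it TEK (1676 to 4359). The 5 leukocyte markers summed to 550.4 to 572 and 683 to 1301, mostly CD68 (538 to 1277). The 5 smooth muscle and pericyte markers summed to 7517 to 8333 and 4329.5 to 5620.1, mostly CSPG4 (2370.4 to 5923) and NOTCH3 (1655 to 2995.3). The part of these shifts in the results below was not tested. Recovered reads per library ranged from 14106799 to 21762412 over the listed genes.

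Values are normalized counts, that is gene read counts that the authors divided by one factor per library. Changes are log2 fold changes of normalized counts plus 1, from a limma model of the 4 groups over 12 libraries, and a gene was called at a Benjamini-Hochberg adjusted p under 0.05 over the 11242 genes tested. Libraries are A125 to A127 (proliferating), A116 to A118 (DMSO), A119 to A121 (palbociclib) and A122 to A124 (ruxolitinib), and 3 values in a row follow that order within a group. Bulk libraries cannot tell a change in RNA per cell from a change in the share of cells that hold it.

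p53 binds DNA as a tetramer, at a pair of copies of a 10-base half-site. RefSeq promoter windows (GRCh38.p14, 250 bases before to 50 after each start) were at hand for 28 of the 35 genes, the others being ASCC3, CMBL, FBXO22, GADD45A, PHLDA3, RRM2B and TP53INP1. Matches to the half-site consensus, which reads the same on both strands, stood in a window of 6 of these 28 genes (21.4%), against 8.06% of the 27305 genes in the table. A full match, with both half-sites perfect and at most 1 base between them, was then sought within 5000 bases of each start in hg38. Such a match was found at 3 of 28 genes (10.7%) and at 0.374% of all genes read. These 3 are the only full matches found at these genes, and their genes took different courses with palbociclib. DDB2 fell to a level not called different from proliferating cells, PLK2 fell below them and ZMAT3 rose further. The commonest course, lowered but still above proliferating cells (20 genes), is not among them, nor is that of the genes not called. Capitals mark both half-sites and any base between them, read 5′ to 3′ on the strand of the gene.

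DDB2: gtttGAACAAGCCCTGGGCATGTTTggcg
PLK2: tgagAAACATGCCTGGACTTGCCCtgca
ZMAT3: cataAAACAAGTCCAGACATGCCTaggc

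The DDB2 match lies at chr11:47214975-47215003 on the plus strand, centred 15 bases after a start of DDB2 and inside its annotated UTR (GENCODE v44), with 1 base between the half-sites. That of PLK2 lies at chr5:58462270-58462297 on the minus strand, centred at -2198 from the start and outside the gene, and that of ZMAT3 at chr3:179070184-179070211 on the minus strand, centred at -856 from one start and inside an annotated intron, both with no base between. Single half-sites in the promoter windows of 5 genes are also shown. Palbociclib lowered AEN, FDXR, PLK2 and SESN1 and did not lower RPS27L. Whether the letters go with the response to palbociclib was not tested. Capitals mark the half-site.

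AEN: agccGGGCTTGCCCgggc
FDXR: gagcGGGCTTGCCCtgcg
PLK2 promoter: gacaAGACTTGCTTcccg
SESN1: gtctGGACAAGTCTccac
RPS27L: gagcAGACAAGCCCgccc

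They lie at chr15:88621302-88621319 (AEN, plus strand), chr17:74872992-74873009 (FDXR, minus), chr5:58460205-58460222 (PLK2, minus), chr6:109009024-109009041 (SESN1, minus) and chr15:63157523-63157540 (RPS27L, minus), all before the start. The half-sites of AEN and FDXR have the same 10 letters. A match describes these letters and no binding was measured.

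After irradiation the p53 targets rose almost without exception. In irradiated DMSO cells 34 of the 35 were higher than in proliferating cells, where 33.0% of all genes were higher and 39.3% lower, and the libraries of the groups were apart for 34 of 35, against 75.1% of all genes. None was lower by limma, and none at an unadjusted p under 0.05, by edgeR or by DESeq2. The median log2 fold change was 1.0 against -0.05 over all genes, and the range ran from 0.35 in AEN to 5.19 in GDF15. In 17 the rise was at least 2-fold, against 11.1% of all genes. Only CDIP1, the least abundant, was not called (0.53, SE 0.31, adjusted p 0.14). Scaling all libraries to an equal total gave it a call (0.75, adjusted p 0.0401). Its direction was not stable, as its log2 fold change ran from -0.26 to 0.76 over all the alternative settings. Together the 35 genes took 0.144% to 0.145% of all normalized counts listed in proliferating libraries and 0.387% to 0.397% in DMSO libraries. The totals behind these shares differed, at 19113235 to 19775234 in proliferating and 16335891 to 16699938 in DMSO libraries. The summed counts of the 35 genes were 27714.8 to 28575.9 and 64424.5 to 64811.5.

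**Figure D1:**
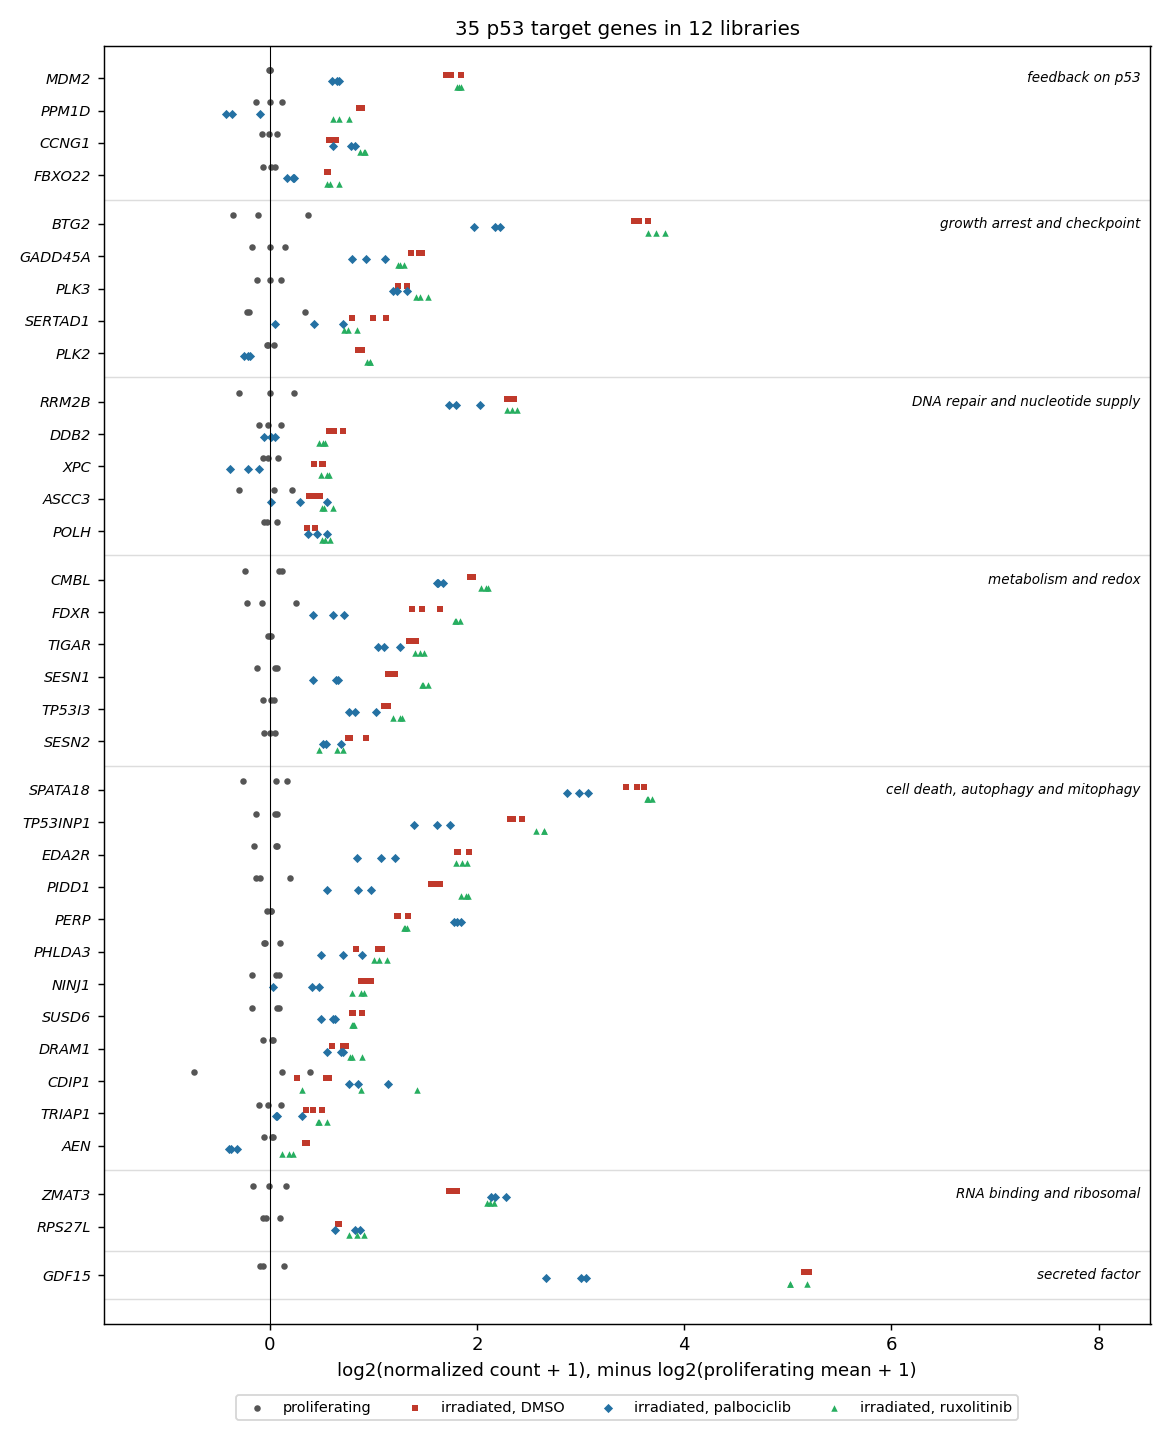
Each point is 1 library. The x axis is log2(normalized count + 1) minus the log2 of the proliferating mean plus 1, and the rows are the 35 genes grouped by role. DMSO libraries lie to the right of the proliferating ones for 34 genes, and palbociclib libraries lie left of DMSO for most but right of it for PERP, ZMAT3 and CDIP1.

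Palbociclib lowered most of these genes, and most of those it lowered stayed above proliferating cells. With palbociclib 26 of the 35 genes were lower than with DMSO and 2 were higher, where 22.3% of all genes were lower and 26.0% higher. The median log2 fold change was -0.48 against 0.02 over all genes, and the range ran from -2.27 in GDF15 to 0.54 in PERP. The decrease was at least 2-fold in 5 genes (GDF15, BTG2, PPM1D, MDM2 and PLK2), against 5.39% of all genes. Palbociclib and DMSO libraries were apart for 28 of 35, against 54.8% of all genes. Of the 34 members raised after irradiation 26 were lowered, against 25.8% of all genes raised after irradiation. These 26 were all the members that palbociclib lowered. Both comparisons use the DMSO libraries. Scaling all libraries to an equal total, which shifts the median gene by -0.23 in this comparison and by 0.23 in that of irradiation, gave 30 lower and 2 higher.

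Of the 34 genes that rose, 8 were not lowered (5 of 35 at an equal total for all libraries). PERP and ZMAT3 rose further, and ASCC3, CCNG1, DRAM1, PLK3, POLH and RPS27L were not called against DMSO. Against proliferating cells, a comparison that leaves out the DMSO libraries, 29 of the 35 genes were still higher with palbociclib and 4 were lower, where 35.2% of all genes were higher and 38.6% lower. The 4 lower genes were AEN, PLK2, PPM1D and XPC. For DDB2 and TRIAP1 no difference from proliferating cells was called (DDB2 0.01, SE 0.07, adjusted p 0.91; TRIAP1 0.15, SE 0.08, adjusted p 0.106), although TRIAP1 was called higher without A126 (0.21, adjusted p 0.0380). Under quantile normalization both were called higher (DDB2 0.18, adjusted p 0.0212; TRIAP1 0.33, adjusted p 0.00121), as was TRIAP1 at the same upper quartile (0.24, adjusted p 0.0197). Leaving out 1 library lowered the 29 to as few as 26, with calls lost for ASCC3, CDIP1 (without A126, 0.66, adjusted p 0.0571), NINJ1 (without A125 or A121, 0.23 in both, adjusted p 0.0775 and 0.0808) and SERTAD1 (without A125, A127, A120 or A121, 0.27 to 0.41, adjusted p 0.0635 to 0.114). Thus 20 of the 26 lowered genes stayed above proliferating cells, against 18.7% of all genes that palbociclib lowered. These sets are unlike, since all 26 had risen after irradiation but only 958 of the 2505 genes that palbociclib lowered had. No share was taken over those 958 alone. The summed share of the 35 genes was 0.270% to 0.274% in palbociclib libraries. Their summed normalized counts were 64424.5 to 64811.5 with DMSO and 52249.3 to 53098.9 with palbociclib. The totals of all normalized counts listed also differed, at 16335891 to 16699938 with DMSO and 19329099 to 19449542 with palbociclib.

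With ruxolitinib few of these genes passed the test against DMSO. It raised 3 genes (CCNG1, SESN1 and ZMAT3) and lowered none, where 1.10% of all genes were higher and 3.42% lower. At an unadjusted p under 0.05 the limma counts were 10 higher and 3 lower, edgeR called 3 higher and none lower, and DESeq2 called 4 higher and 1 lower. The median log2 fold change was 0.08, in a range from -0.21 to 0.41, and the libraries were apart for 20 of 35, against 31.9% of all genes. When only the DMSO and ruxolitinib libraries were fitted, 11 genes were higher and 5 lower. Beyond the 3 above, the higher ones were ASCC3, DRAM1, FDXR, PIDD1, PLK3, POLH, RPS27L and TP53INP1. The lower ones were AEN, GADD45A, PPM1D, SERTAD1 and SESN2. The summed share was 0.403% to 0.408% of the normalized counts listed. Compared directly, 27 of the 35 genes were lower and 1 (PERP) higher with palbociclib than with ruxolitinib, where 17.6% and 22.8% of all genes were.

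**Figure D2:**
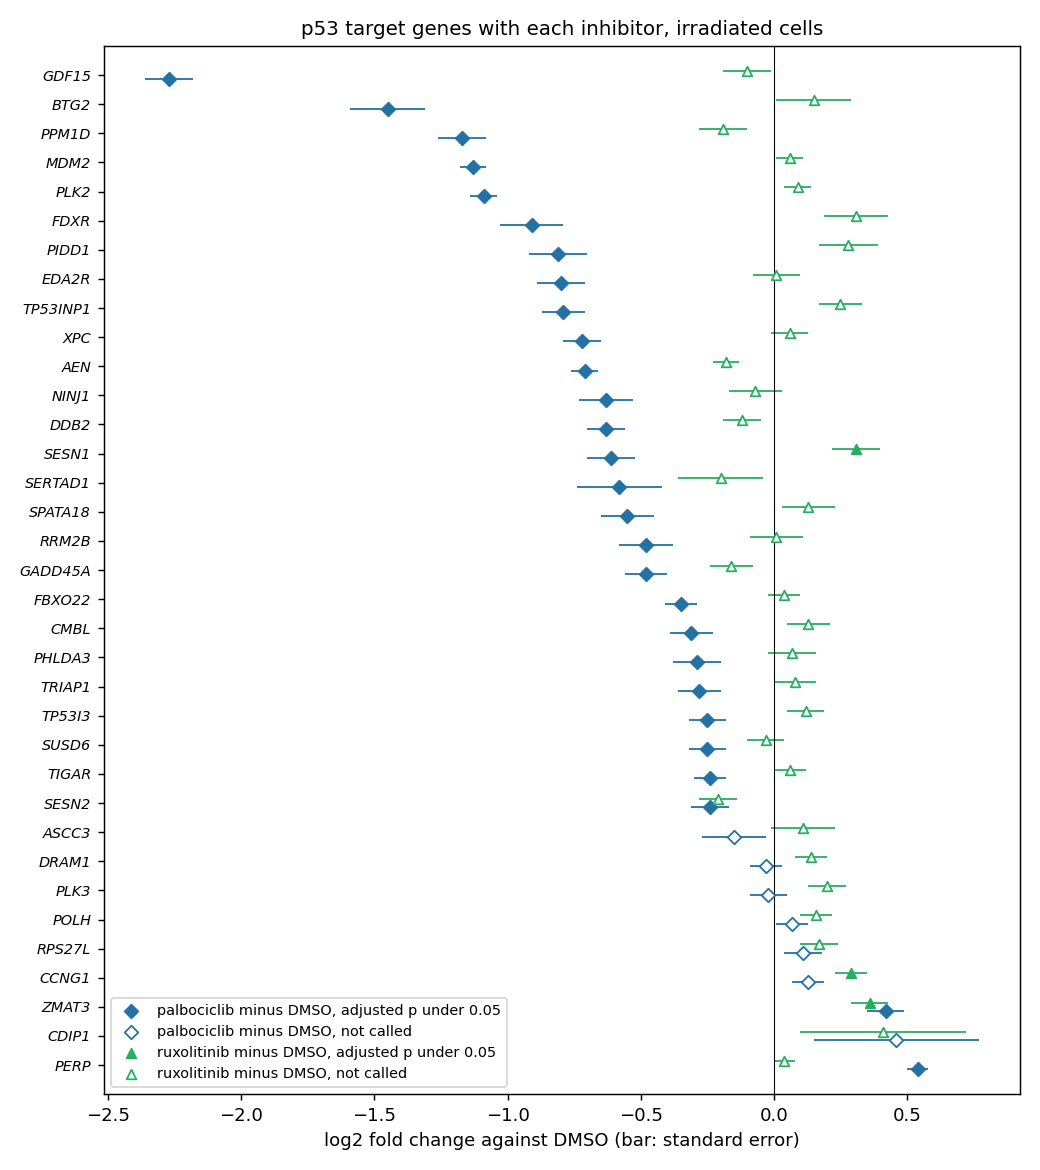
Log2 fold change of each p53 target against DMSO, with its standard error as a bar, for palbociclib (diamonds) and ruxolitinib (triangles). Filled symbols passed an adjusted p under 0.05, and both effects share the DMSO libraries. Filled diamonds lie left of 0 for 26 genes and right of 0 for PERP and ZMAT3, and the filled triangles are those of CCNG1, SESN1 and ZMAT3.

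Among the genes that feed back on p53, all 4 rose after irradiation and 3 fell with palbociclib. MDM2, the ubiquitin ligase that marks p53 for degradation, stood at 1825, 1844 and 1833 normalized counts in the proliferating libraries and at 6613, 6189 and 5967 with DMSO. It stood at 2914, 2870.2 and 2790.1 with palbociclib and at 6527, 6438 and 6606 with ruxolitinib. The DMSO and ruxolitinib libraries overlap, and palbociclib lies between them and the proliferating cells without touching either. The rise was 3.41-fold (log2 fold change 1.77, SE 0.05, adjusted p 5.65e-14) and the decrease with palbociclib was 1.13 on the log2 scale (SE 0.05, adjusted p 6.75e-11). Exons of 2 genes on the opposite strand cover 12.3% of the main MDM2 transcript, and the strand setting of the counting is not given in the sources used here.

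PPM1D encodes a phosphatase that removes activating phosphates from p53 and from the kinases upstream of it. Its values were 346, 380.4 and 412 in proliferating cells, 689, 706 and 694 under DMSO, 355, 282 and 294 under palbociclib and 580.2, 602 and 644 under ruxolitinib. With palbociclib it fell by 1.17 (adjusted p 6.05e-08), to below the proliferating mean (log2 fold change -0.29, SE 0.09, adjusted p 0.00832), although 1 palbociclib library lies above the lowest proliferating one. Under quantile normalization that last difference was not called (-0.09, adjusted p 0.355). FBXO22, an F-box subunit of a ubiquitin ligase, rose from 467 ± 19.0 to 690.3 ± 4.23 (mean ± SD, n = 3, as for all such pairs) and fell to 540.0 ± 13.3 with palbociclib. 17.9% of its main transcript is covered by NRG4 on the opposite strand.

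CCNG1, cyclin G1, which recruits a phosphatase to MDM2, took another course. Proliferating libraries held 2144, 2039.5 and 2254 normalized counts, DMSO libraries 3195, 3342 and 3287, palbociclib libraries 3709.5, 3802 and 3277 and ruxolitinib libraries 3924, 4046 and 4065. All ruxolitinib libraries were above all others, while the lowest palbociclib library lay among the DMSO ones. The change with palbociclib was not called (0.13, SE 0.06, adjusted p 0.0737), but it was without library A121 (0.20, adjusted p 0.0109). Ruxolitinib raised it (0.29, SE 0.06, adjusted p 0.00749).

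All 5 genes of growth arrest and checkpoints rose after irradiation, and palbociclib lowered all but PLK3. BTG2, which recruits the deadenylase that removes poly(A) tails and slows proliferation, was found at 42.5, 71.0 and 50.5 in proliferating cells and at 655, 637 and 698 with DMSO, a 12.1-fold rise (log2 fold change 3.61, SE 0.14, adjusted p 3.00e-12). Palbociclib libraries held 217, 258 and 251 and ruxolitinib libraries 783, 736 and 697. No palbociclib library reached a DMSO library or dropped to a proliferating one (decrease with palbociclib 1.45, adjusted p 6.83e-07), and BTG2 remained 4.43-fold above proliferating cells (adjusted p 1.08e-09).

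The polo-like kinases PLK2 and PLK3, both stress-induced, both rose after irradiation, and of them PLK2 fell with palbociclib. PLK2 stood at 1522, 1522 and 1587 in proliferating cells, 2874, 2782 and 2849 under DMSO, 1339, 1298 and 1356 under palbociclib and 3029, 3029 and 2971 under ruxolitinib. Every palbociclib library was below every proliferating one (log2 fold change -0.21, SE 0.05, adjusted p 5.22e-04). PLK3 stood at 391, 424 and 359 in proliferating cells and at 925, 984 and 925 under DMSO. Palbociclib libraries were at 894, 981 and 918 and ruxolitinib libraries at 1045, 1072 and 1129.7. Its DMSO and palbociclib libraries overlap, with a log2 difference of -0.02, SE 0.07, adjusted p 0.817, while PLK2 fell by 1.09 (SE 0.05, adjusted p 6.75e-11). At an equal total for all libraries the PLK3 difference was -0.25 and called (adjusted p 0.00924), so its place among the genes not lowered depends on the scaling. Whether the 2 genes differ in their response was not tested. GADD45A, a growth arrest protein that binds the replication clamp PCNA, rose from 1127 ± 122 to 3030.1 ± 113 and fell to 2179 ± 239.6 with palbociclib (adjusted p 1.76e-04). SERTAD1, a CDK4-binding coregulator, had the widest spread with palbociclib (coefficient of variation 22.3%), going from 339.9 ± 79.3 to 671 ± 76.6 and 456 ± 102.

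**Figure D3:**
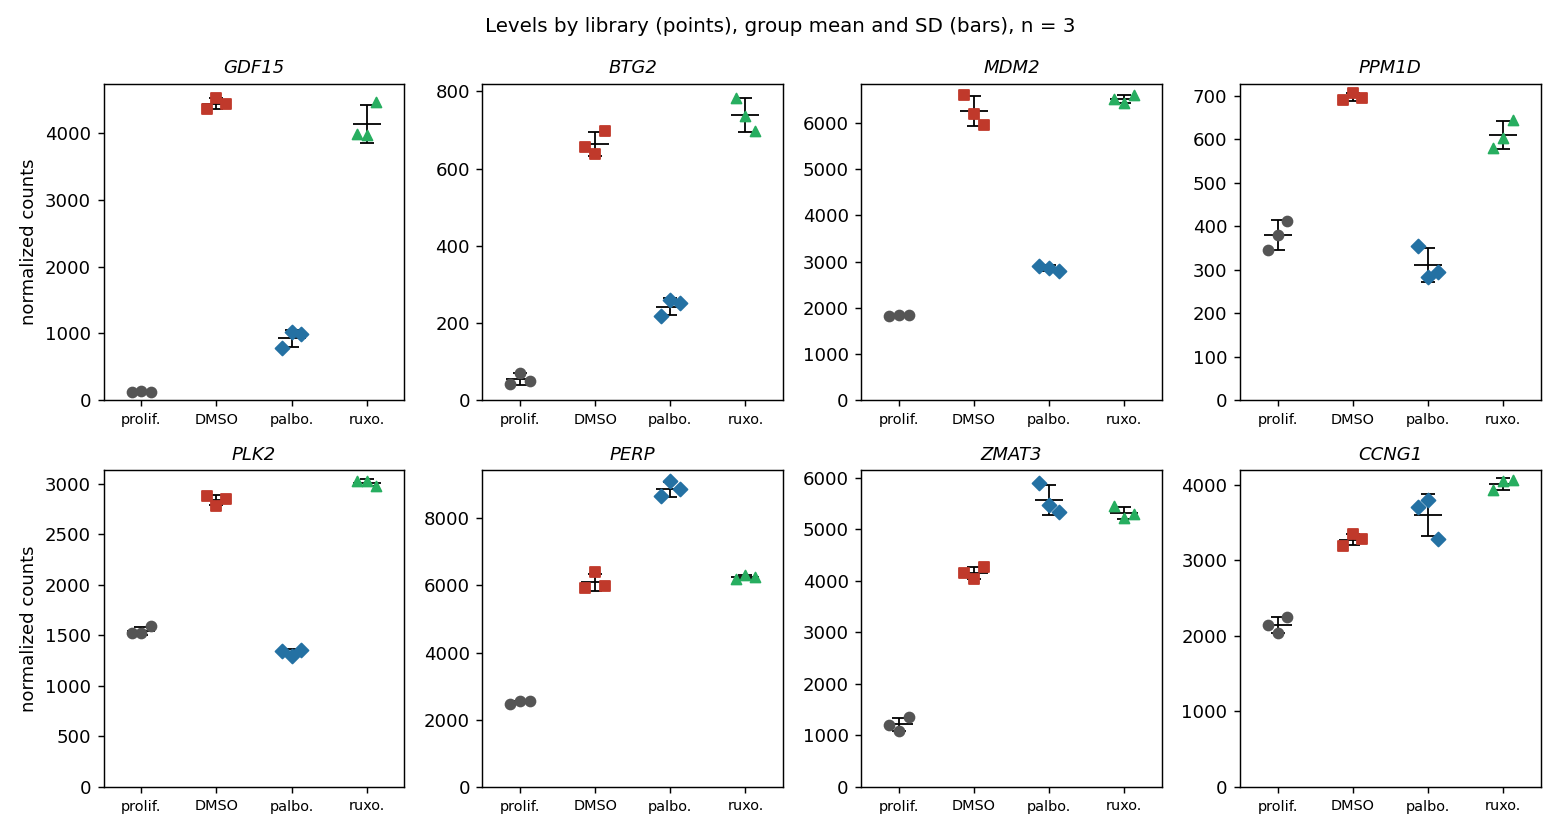
Normalized counts of 8 p53 targets by library (points), with group mean and SD (n = 3), for proliferating cells and for irradiated cells with DMSO, palbociclib or ruxolitinib. Palbociclib libraries lie well below DMSO for GDF15, BTG2, MDM2, PPM1D and PLK2, above it for PERP and ZMAT3, and overlap it for CCNG1.

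In DNA repair and nucleotide supply all 5 genes rose after irradiation and 3 fell with palbociclib. RRM2B, the subunit of ribonucleotide reductase that p53 induces to supply deoxynucleotides outside S phase, was at 679, 551 and 795 in proliferating libraries and at 3473, 3408 and 3312 with DMSO (log2 fold change 2.35, SE 0.10, adjusted p 1.21e-11). With palbociclib it was at 2751, 2246 and 2345 and with ruxolitinib at 3304, 3541 and 3419. All palbociclib libraries lie below the DMSO ones (decrease 0.48, adjusted p 0.00126) and far above the proliferating ones. The damage-recognition genes of nucleotide excision repair rose and fell as well. DDB2 went from 513 ± 38.3 to 797 ± 38.4 and then to 515 ± 18.9 with palbociclib. XPC went from 884 ± 47.9 to 1239 ± 40.6 and to 756 ± 72.9, below proliferating cells (-0.23, SE 0.07, adjusted p 0.00784), a call that was lost at the same upper quartile (-0.14, adjusted p 0.0954) and under quantile normalization (-0.09, adjusted p 0.260). XPC-AS1 and a further gene on the opposite strand cover 41.3% of the main XPC transcript, so its count is uncertain.

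For the remaining pair no change with palbociclib was called. POLH, the polymerase that copies past UV lesions, was at 1181, 1295 and 1212 in proliferating cells, 1667, 1584 and 1575 under DMSO, 1803, 1595 and 1690.4 under palbociclib and 1751, 1841 and 1785 under ruxolitinib. Irradiation raised it by only 0.39 on the log2 scale (adjusted p 1.80e-05). The palbociclib difference of 0.07 (adjusted p 0.297) turned to -0.15 and was called (adjusted p 0.0429) with every library at the same total. ASCC3, a helicase subunit used in alkylation repair, stood at 2835, 2246 and 3201 in proliferating cells and at 3594, 3729 and 3864 under DMSO. Palbociclib libraries were at 4046, 2783 and 3385 and ruxolitinib libraries at 3909, 4217 and 3959. Its palbociclib libraries span the DMSO range and more (-0.15, SE 0.12, adjusted p 0.327), and without library A119 the difference was -0.28 and called (adjusted p 0.0435). Quantile normalization and the same total also gave a call (-0.32 and -0.37, adjusted p 0.0325 and 0.0124). ASCC3 remained above proliferating cells (0.30, SE 0.12, adjusted p 0.034), but not without A126 (0.16, adjusted p 0.185), without A119 (0.17, adjusted p 0.176) or without A121 (0.30, adjusted p 0.0771).

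The 6 genes of metabolism and redox balance all rose after irradiation, all fell with palbociclib and all stayed above proliferating cells, with a median palbociclib change of -0.28. CMBL, a cytosolic hydrolase, stood at 191, 149 and 188 in proliferating cells and at 676, 687 and 681 with DMSO (log2 fold change 1.96, SE 0.08, adjusted p 1.11e-11). It was at 546, 563 and 540.1 with palbociclib and 760.0, 724 and 752 with ruxolitinib, so that most of its rise remained. The mitochondrial reductase FDXR, which feeds electrons to steroid and iron-sulfur cluster synthesis, lost the most, from 409.6 ± 39.6 to 218 ± 22.7 (-0.91, SE 0.12, adjusted p 1.47e-05). TIGAR, which lowers fructose-2,6-bisphosphate and so glycolysis, fell to 1175 ± 92.6 from 1389.6 ± 31.1 with DMSO, above the 532 ± 5.05 of proliferating cells. The quinone reductase TP53I3 fell to 726 ± 70.7 from 859 ± 10.8, above the 395 ± 14.9 of proliferating cells. The same-strand gene ENSG00000285901 shares 20.8% of the main TIGAR transcript, which leaves its count uncertain.

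The sestrins, stress proteins that restrain the growth kinase mTORC1, also rose after irradiation and fell with palbociclib. SESN1 was at 179, 176 and 156 in proliferating cells, 389, 395 and 377 under DMSO, 266, 228 and 270.0 under palbociclib and 475, 493 and 477 under ruxolitinib. Palbociclib libraries lie below all DMSO libraries and ruxolitinib libraries above them. The direct difference between the inhibitors was -0.92, SE 0.09, adjusted p 6.61e-07. The rise with ruxolitinib was borderline (0.31, SE 0.09, adjusted p 0.0488) and was not called without any one of 8 libraries (A116, A117, A118, A121, A122, A123, A124 or A125), with log2 fold changes of 0.29 to 0.33 and adjusted p of 0.0557 to 0.180. Over all the alternative settings, its log2 fold change was 0.29 to 0.35 and the adjusted p ran from 9.29e-04 to 0.180. SESN2 went from 624 ± 23.3 to 1106 ± 72.6, then to 936 ± 60.1 with palbociclib and 956 ± 80.8 with ruxolitinib. Its decrease with palbociclib (log2 fold change -0.24, SE 0.07, adjusted p 0.0146) was not called without DMSO library A117 (-0.19, adjusted p 0.0771).

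Of the 12 genes of cell death, autophagy and mitophagy, 11 rose after irradiation, 9 fell with palbociclib and 1 rose further. SPATA18, which acts in the clearance of damaged mitochondria, stood at 72.6, 97.6 and 90.5 in proliferating libraries and at 1025, 952 and 1073 with DMSO, an 11.7-fold rise (log2 fold change 3.54, SE 0.10, adjusted p 6.06e-14). It was at 738, 642 and 696 with palbociclib and 1099, 1133 and 1105 with ruxolitinib. The palbociclib decrease of 0.55 (adjusted p 2.16e-04) left it 7.96-fold above proliferating cells. TP53INP1, a cofactor of p53 that also acts in autophagy, was found at 289, 334 and 329 in proliferating cells and at 1717, 1586 and 1622 under DMSO. Palbociclib libraries were at 1059, 832 and 974 and ruxolitinib libraries at 1986, 1985 and 1885. No group overlaps another (rise 2.37, SE 0.08, adjusted p 7.82e-13; palbociclib -0.79, SE 0.08, adjusted p 1.59e-06). Its higher level with ruxolitinib was not called (0.25, SE 0.08, adjusted p 0.112), but DESeq2 called it (0.25, adjusted p 0.0408), as did limma without library A120 (0.25, adjusted p 0.0248). A limma fit of only the DMSO and ruxolitinib libraries called it too (0.25, adjusted p 7.62e-05).

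EDA2R, a receptor of the TNF family that binds ectodysplasin A2, was at 292, 289.5 and 250.4 in proliferating cells, 1051, 973 and 981 under DMSO, 587, 498 and 644 under palbociclib and 1006, 1044 and 969 under ruxolitinib. Its rise was 1.85 (SE 0.09, adjusted p 3.74e-11) and its decrease with palbociclib 0.80 (adjusted p 3.12e-06). PIDD1, the scaffold that activates caspase-2, fell from 525 ± 16.2 to 301 ± 44.4 with palbociclib, beside 172 ± 22.3 in proliferating cells. AEN, a nuclease of apoptosis, fell from 1874 ± 14.5 to 1142 ± 31.8, below the 1467 ± 49.4 of proliferating cells in every library (log2 fold change -0.36, SE 0.05, adjusted p 9.51e-06). NINJ1, which ruptures the membrane of dying cells, fell from 612 ± 21.4 to 399 ± 62.8, beside 319.7 ± 31.8.

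Smaller decreases were seen in 3 others. PHLDA3, which keeps AKT from the membrane, went from 1762 ± 160.0 to 1442 ± 197 (-0.29, SE 0.09, adjusted p 0.0139), a call that was lost without A116, A118 or A119 (-0.26, -0.25 and -0.19, adjusted p 0.0568, 0.0661 and 0.0605). TRIAP1, an inhibitor of apoptosis, went from 617 ± 31.9 to 510.2 ± 52.1 (-0.28, SE 0.08, adjusted p 0.011), and lost its call without A117 or A121 (-0.24 and -0.23, adjusted p 0.0510 and 0.0529). SUSD6, a membrane protein with a sushi domain, went from 1195 ± 41.5 to 1004 ± 49.1 (-0.25, SE 0.07, adjusted p 0.00746). The gene ENSG00000224818 shares 21.8% of the main PHLDA3 transcript on the same strand, and its count is uncertain for that reason. For CDIP1, which acts in apoptosis, the values were 18.7, 9.98 and 22.9 in proliferating cells, 20.8, 26.0 and 25.4 under DMSO, 29.9, 31.8 and 39.1 under palbociclib and 21.6, 47.7 and 32.5 under ruxolitinib, so that proliferating and DMSO libraries overlap. All palbociclib libraries lie above the DMSO ones, with no call (0.46, SE 0.31, adjusted p 0.242) except under quantile normalization (0.99, adjusted p 0.0210), and the ruxolitinib libraries overlap both.

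PERP was the only one of the 35 that was higher with palbociclib than with both DMSO and ruxolitinib. It encodes a membrane protein of desmosomes that p53 also uses in apoptosis. It stood at 2476, 2545 and 2555 in proliferating cells and at 5927, 6387 and 5978 with DMSO. Values with palbociclib were 8646, 9092 and 8863 and with ruxolitinib 6193, 6319 and 6242, so that every palbociclib library was above every other library. The rise after irradiation was 1.27, SE 0.04, adjusted p 1.10e-12, the further rise with palbociclib 0.54, SE 0.04, adjusted p 1.45e-07 and the difference from ruxolitinib 0.50, SE 0.04, adjusted p 4.38e-07. DRAM1, a lysosomal membrane protein of autophagy, was measured at 1485, 1473 and 1387 in proliferating cells and at 2202, 2415 and 2359 under DMSO. Palbociclib libraries were at 2121, 2328 and 2364 and ruxolitinib libraries at 2508, 2474 and 2687. DMSO and palbociclib overlap (-0.03, SE 0.06, adjusted p 0.649), but with every library at the same total the difference was -0.26 and called (adjusted p 0.00174), as it was under quantile normalization (-0.17, adjusted p 0.0253).

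The RNA-binding protein ZMAT3, which controls splicing and the stability of transcripts, rose with both inhibitors. Proliferating libraries held 1207, 1081 and 1348 normalized counts and DMSO libraries 4151, 4027 and 4256 (log2 fold change 1.78, SE 0.07, adjusted p 2.62e-12). Palbociclib libraries held 5899.5, 5469 and 5333 and ruxolitinib libraries 5446, 5208 and 5290.4, all above the DMSO ones and overlapping each other. Its change was 0.42, SE 0.07, adjusted p 1.13e-04 with palbociclib and 0.36, SE 0.07, adjusted p 0.00504 with ruxolitinib, and the difference between them was not called (0.07, SE 0.07, adjusted p 0.464). The ribosomal protein gene RPS27L lay at 1665, 1827 and 1629 in proliferating cells and at 2704, 2712 and 2724 under DMSO. Palbociclib libraries were at 2647, 3128 and 3022 and ruxolitinib libraries at 3073, 2895 and 3208. Its palbociclib libraries lie on both sides of the DMSO ones, whose range is narrow, and the difference was not called (0.11, SE 0.07, adjusted p 0.186) except without library A119 (0.18, adjusted p 0.0218).

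GDF15, a stress cytokine of the TGF-beta family that cells secrete, had the largest change in both comparisons among the 35. It stood at 116, 134 and 114 in proliferating cells, 4369, 4527 and 4446 under DMSO, 778, 1015 and 985 under palbociclib and 3989, 3975 and 4473 under ruxolitinib. The rise after irradiation was 36.6-fold, and 7.62-fold with palbociclib, so the palbociclib libraries lie apart from both the DMSO and the proliferating ones. DMSO and ruxolitinib libraries overlap (-0.10, SE 0.09, adjusted p 0.655).

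Levels of different genes can be set side by side only per length. The order then rests on the 1 transcript taken for each gene (for RPS27L 6110 bases), and other transcripts were not tried. Per kilobase of the main GENCODE transcript, GDF15 was the most abundant of the set with DMSO, at 3706 normalized counts, followed by GADD45A (2241), PERP (1452), CCNG1 (1340.0) and PLK2 (1018). In proliferating cells CCNG1 (878) and GADD45A (834) led and GDF15 stood at 101. With palbociclib PERP led, at 2112 per kilobase, followed by GADD45A (1612) and CCNG1 (1471). The lowest in every group was CDIP1, with 6.34 to 12.5 per kilobase. Between libraries of a group, the median coefficient of variation over the 35 genes was 7.83% in proliferating cells, 3.50% under DMSO, 9.10% under palbociclib and 3.15% under ruxolitinib.

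**Figure D4:**
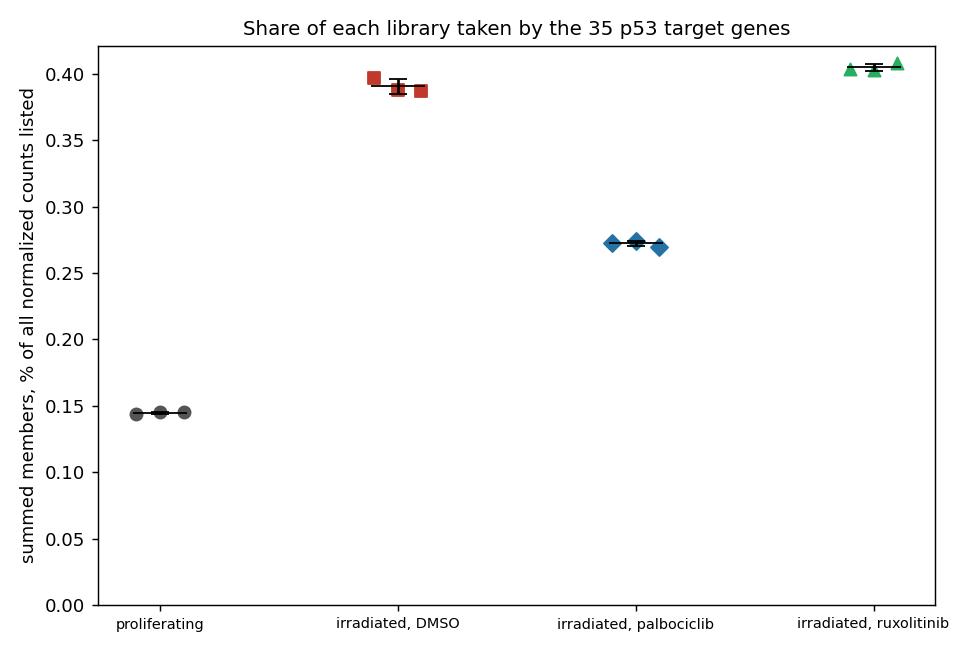
Summed normalized counts of the 35 p53 targets as a percentage of all normalized counts listed, by library (points), with group mean and SD (n = 3). Proliferating libraries lie at 0.144% to 0.145%, DMSO at 0.387% to 0.397%, palbociclib at 0.270% to 0.274% and ruxolitinib at 0.403% to 0.408%. The totals behind these shares were higher in proliferating and palbociclib libraries than with DMSO.

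MDM4, the partner of MDM2 that blocks p53 activity, fell after irradiation from 738 ± 95.7 to 446 ± 76.8 (-0.73, SE 0.11, adjusted p 2.95e-05). Of 16 regulators of p53, 2 were higher and 7 lower after irradiation (median -0.05), and 1 was higher and 6 lower with palbociclib (median -0.18). Over all genes 33.0% were higher and 39.3% lower after irradiation (median -0.05), and 26.0% higher and 22.3% lower with palbociclib (median 0.02). The largest decreases after irradiation were in the checkpoint kinase gene CHEK1 (-1.81) and in the deubiquitinase gene USP28 (-1.43). The opposite-strand gene ENSG00000288907 covers 18.2% of the main CHEK1 transcript, so its count is uncertain. COP1, a ubiquitin ligase that also marks p53, fell after irradiation (-0.58, SE 0.06, adjusted p 6.96e-07) and was the 1 regulator that rose with palbociclib (0.18, SE 0.06, adjusted p 0.0333), a difference that turned to -0.05 and was not called (adjusted p 0.518) at an equal total. That call was also lost with edgeR and DESeq2 (0.15 and 0.16, adjusted p 0.0645 and 0.0860) and without A116, A117, A120 or A121 (0.14 to 0.18, adjusted p 0.0665 to 0.134). Protein level and activity of p53 were not measured.

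A list of 29 other p53 targets gave a mixed picture. Of the 24 tested, 17 rose and 4 fell after irradiation (median 0.77), and 4 rose and 14 fell with palbociclib (median -0.24), where 33.0% of all genes rose and 39.3% fell after irradiation and 26.0% rose and 22.3% fell with palbociclib. CDKN1A, which encodes the CDK inhibitor p21, went from 3389 ± 195 to 29150.3 ± 662, then to 14779 ± 998 with palbociclib and 31744 ± 1333 with ruxolitinib. Its log2 fold change was 3.11, SE 0.06, adjusted p 4.55e-15 after irradiation and -0.98, SE 0.06, adjusted p 3.37e-09 with palbociclib. BBC3, the BH3-only protein PUMA, rose from 105 ± 18.1 to 239.8 ± 52.5 and fell to 131 ± 1.49 with palbociclib (-0.85, SE 0.15, adjusted p 3.38e-04). BAX, which opens the outer mitochondrial membrane, was not called after irradiation (-0.11, SE 0.10, adjusted p 0.33) or with palbociclib (-0.15, SE 0.10, adjusted p 0.212), although the latter was called without A120 (-0.25, adjusted p 0.0372) and at an equal total (-0.38, adjusted p 0.00619). Of the decoy receptor genes, TNFRSF10C had means of 15.0 in proliferating cells, 281 under DMSO, 80.8 under palbociclib and 243 under ruxolitinib. TNFRSF10D had means of 2532, 4580.4, 14896 and 15872 in the same order, and rose against DMSO with palbociclib (1.70, SE 0.06, adjusted p 2.78e-11) and with ruxolitinib (1.79, SE 0.06, adjusted p 4.82e-11). The difference between the inhibitors was not called for TNFRSF10D (-0.09, SE 0.06, adjusted p 0.257). 36.6% of the main TNFRSF10C transcript is shared with other annotated genes on its strand, so its count is uncertain.

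Further decreases with palbociclib were seen in CYFIP2, a partner of the WAVE actin complex (-1.72), in the chaperone gene HSPA4L (-1.34) and in KITLG, the ligand of the receptor KIT (-1.0). KITLG had already fallen after irradiation (-0.77, SE 0.10, adjusted p 2.62e-06), with means of 1883 in proliferating cells, 1095 with DMSO and 549 with palbociclib. After irradiation CYFIP2 and TRIM22 were among the largest increases (2.76 and 2.29). TRIM22, an antiviral protein, is also induced by interferon. IGFBP3, a secreted protein that binds insulin-like growth factors, rose with palbociclib (1.59, SE 0.05, adjusted p 1.70e-12), as did TP53I13 (0.23, SE 0.08, adjusted p 0.0317). The call of TP53I13 was lost without any one of A116, A117, A118, A120 or A121 (0.20 to 0.24, adjusted p 0.0577 to 0.0852), and with edgeR (0.20, adjusted p 0.0550) and DESeq2 (0.20, adjusted p 0.0501). At an equal total for all libraries the difference was 0 (adjusted p 1), and at the same upper quartile it was 0.17 (adjusted p 0.142).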

How the data were processed

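The deposited table holds 1 row per Entrez gene and 12 columns of a non-negative signal that the authors call normalized counts. Per the submitters' processing notes, the tools were Trimmomatic 0.38.1, HISAT2 2.2.1, featureCounts 2.0.3 and DESeq2 2.11.40.8, with genome build hg38. The annotation and strand setting are not given in the sources used here. All 160380 values above 0 were whole multiples of 1 read per column (tolerance 0.01), so reads were recovered from the deposited signal. The table ends at Entrez gene 140467. Genes with higher numbers were not analysed here, including 2 of the 29 other p53 targets. Each column was assigned to its group by name, and libraries are named by the number in the column name. No replicate pair agreed within counting noise. The chi-squared statistic per degree of freedom, higher where a pair differs more, was 1.94 to 2.75 within DMSO and ruxolitinib. It was 2.88 to 16.4 within proliferating and 6.18 to 23.9 within palbociclib, highest in pairs with A126 and with A120.

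limma 3.58.1 in R 4.3.3 was run on log2(normalized count + 1) with 4 group means over 12 libraries, a mean-variance trend and Benjamini-Hochberg adjustment over 11242 genes with a mean of at least 10. All adjusted p-values are from this fit unless another setting is named. The fit was tested on simulated data. Recovered reads also went through edgeR 4.0.16 and DESeq2 1.42.0. The members, the lists and the tests were chosen with earlier results of these data known. All 35 members are named. Values in every library are given for the 8 largest increases after irradiation, decreases of at least 2-fold with palbociclib, genes raised by irradiation and not lowered by palbociclib, and genes called with ruxolitinib. Of the pathway lists, MDM4, CDKN1A, BAX, BBC3 and the 4 largest called changes in each direction after irradiation and with palbociclib are named. CDIP1, given in every library, lies outside this rule: its library values were added once seen. Some listed genes are not reported here. The search of hg38 around gene starts was also added later. Overlaps and shared sequence were read from GENCODE v44 for the main (Ensembl canonical) transcript of each gene.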

Additional observations from a re-analysis of the deposited data

How the results depend on the processing

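Alternatives were a pseudocount of 0.1 or 5, no minimum or one of 50 for the mean, libraries set to equal totals, upper quartiles or quantiles, no trend in limma, separate fits per pair of groups, omission of 1 library at a time, edgeR and DESeq2 on the recovered reads, an adjusted p under 0.01 and a log2 fold change of at least 1. Leaving out 1 library, the count of genes higher after irradiation stayed at 34, and no gene was lower. With palbociclib against DMSO it was 2 to 3 higher and 24 to 26 lower, with ruxolitinib against DMSO 2 to 4 higher and 0 to 1 lower (1 gene, AEN, without A126 or A120), between the inhibitors 1 to 1 higher and 24 to 29 lower, and with palbociclib against proliferating cells 26 to 29 higher and 4 to 4 lower. Genes raised by irradiation numbered 24 to 26 lowered and 8 to 10 not lowered by palbociclib, and 18 to 21 lowered genes stayed above proliferating cells. At a log2 fold change of at least 1, a stricter call by construction, 17 genes were higher after irradiation, 0 higher and 5 lower with palbociclib, 0 higher with ruxolitinib, 0 higher and 7 lower between the inhibitors, and 11 higher and 0 lower with palbociclib against proliferating cells. Then 3 raised genes were lowered and 14 not lowered by palbociclib, and 2 lowered genes stayed above proliferating cells. With the same total, 5 raised genes were not lowered by palbociclib and 1 was lower with ruxolitinib. Quantile normalization gave 1 gene lower with ruxolitinib and 2 lower with palbociclib than in proliferating cells, and DESeq2 gave 1 lower with ruxolitinib. Fitting only the groups compared gave 11 higher and 5 lower with ruxolitinib. The cause of these shifts was not tested. Directions that reversed, counted only where the main or the alternative fit gave a call, were POLH (-0.15) and COP1 (-0.05) with palbociclib against DMSO at the same total. Signs also turned in genes that neither fit called. Among them, with palbociclib against DMSO, were CCNG1 (0.13, at lowest -0.09) and RPS27L (0.11, at lowest -0.12). Of 804 gene values per comparison under the alternatives, the call changed in 1 after irradiation, 16 with palbociclib, 30 with ruxolitinib, 35 between the inhibitors and 23 with palbociclib against proliferating cells. No paired analysis was possible because the columns carry no replicate numbers.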
